A study of Mus musculus with 12 samples.

Results

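The 10 genes Arntl, Clock, Per1, Per2, Cry1, Nr1d1, Nr1d2, Dbp, Tef and Bhlhe40 belong to the circadian clock or are driven by it, and were taken by name from the 29737 genes of the count table. All 10 were in the table and all 10 passed the filter on low counts, which kept 16761 genes. Their mRNA was measured by RNA-seq in neutrophils of wild-type mouse bone marrow. The cells were enriched as Ly6G-positive cells with magnetic beads and cultured for 24 h in serum-containing medium, with PBS as the control or with 1 of 3 bile acids. The groups were PBS, taurocholic acid (TCA, 200 μM), glycocholic acid (GCA, 200 μM) and tauro-β-muricholic acid (Tβ-MCA), with 3 samples each. For Tβ-MCA the labels give 10 μM while the methods of the study give 200 μM, so its values are set beside those of the other bile acids without a test between them. The methods of the study name female mice of the C57BL/6 strain, aged 4 to 6 weeks, for its animal work, and the labels give no age. The hour of the day at which the cells were taken and whether the 3 samples of a group came from separate mice were not given in the sources used here. The p-values therefore measure only the spread between these samples, which may be technical.

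The clock is a feedback loop that runs in nearly every cell. CLOCK and BMAL1, the product of Arntl, bind E-box sequences and switch on the Per and Cry genes, whose proteins accumulate and block CLOCK and BMAL1 in turn. In a second loop the same pair drives Nr1d1 and Nr1d2, which encode the nuclear receptors REV-ERBα and REV-ERBβ, and these repress Arntl through ROR elements. Dbp and Tef encode transcription factors of the PAR bZIP family that carry the rhythm to other genes through D-box sequences, and Bhlhe40 encodes DEC1, a repressor that competes for E-boxes and is also induced by many stimuli. Neutrophils released from the marrow age over the day, with a rise of the chemokine receptor Cxcr4, and this ageing has been tied to Arntl and Cxcr2.

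The letters through which the loop acts were searched in the RefSeq promoter windows of GRCm38.p6, each of 300 bases, from 250 before to 50 after a transcription start. Of the 10 genes, 8 had at least 1 window in the table, with 13 windows in all. Per2 and Bhlhe40 had no entry. The motifs were the E-box CACGTG, the variant E-box CACGTT, the D-box TTATGTAA, the ROR element core TAGGTCA and the CRE TGACGTCA, each on both strands. The E-box and its variant differ in their last letter and cannot match at the same place. The stretches that held a match are shown because they carry the E-boxes and the ROR element described above, and the capitals mark the matched letters.
Per1, chr11:69098759-69098812, plus strand: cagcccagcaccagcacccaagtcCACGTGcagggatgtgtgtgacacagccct
Cry1, chr10:85185085-85185157, minus strand: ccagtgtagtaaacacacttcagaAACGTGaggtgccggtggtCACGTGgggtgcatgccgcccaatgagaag
Nr1d1, chr11:98775378-98775429, minus strand: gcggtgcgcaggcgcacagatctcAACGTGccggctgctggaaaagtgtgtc
Tef, first window, chr15:81802534-81802563, plus strand: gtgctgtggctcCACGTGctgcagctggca
Tef, second window, chr15:81811252-81811305, plus strand: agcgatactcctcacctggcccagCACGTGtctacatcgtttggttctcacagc
Arntl, chr7:113207530-113207558, plus strand: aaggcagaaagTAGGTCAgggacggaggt

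The E-box CACGTG lay in 4 of the 13 windows, those of Per1, Cry1 and both of Tef, while 7.15% of all 32851 windows held it. It began 166 bases before the start in Per1, 60 bases before it in Cry1, and 127 and 138 bases before it in the windows of Tef. The variant E-box was found in Cry1 and Nr1d1 as its reverse complement AACGTG, and 4.68% of all windows held it on either strand. The ROR core lay 30 bases after the start in 1 window of Arntl, and 2.61% of all windows held it. No window of the 10 genes held the D-box or the CRE, which were in 0.938% and 1.79% of all windows. Clock, Dbp and Nr1d2 had windows without any of these letters. The matches are a description of the sequence and no binding was measured.

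The samples carry numbers in their titles, 3, 5 and 6 for PBS and 3, 4 and 5 for each bile acid, and are named here by group and number. Each sample held between 32757389 and 41375925 counts. In a principal component analysis, Tβ-MCA 3 and Tβ-MCA 4 lay far from the rest on the first component (38.3 and 30.6), Tβ-MCA 5 (1.80) and GCA 4 (4.75) lay between, and the other samples lay from -10.5 to -7.63. On the second component the 4 samples numbered 3 stood apart, at 11.8 to 18.6, from the other 8, at -10.1 to -6.30. The neutrophil markers were abundant, with S100a9, a subunit of calprotectin, at 617937 to 888961 counts per sample, whereas Ly6g was low, at 252 to 746 counts. Markers of monocytes and macrophages were also present in every sample. T cell and NK cell markers were close to 0, with Klrb1c under 3 counts in all 12 samples, and the 4 erythroid markers summed to at most 1.60 CPM (counts scaled by the depth of the sample).

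In length-corrected terms the clock genes spanned a wide range of levels in PBS-treated neutrophils. Per1 was the highest, at a deposited RPKM (reads scaled by exon length and by depth) of 39.1 ± 2.15 (SD, n = 3). Bhlhe40 (14.6 ± 1.98) and Cry1 (14.1 ± 1.08) followed, with ranges that overlapped. Per2 was next at 3.95 ± 0.362, then Dbp at 1.93 ± 0.225, Clock at 1.28 ± 0.102 and Nr1d1 at 0.727 ± 0.106 RPKM, and each of these 4 stood clear of its neighbours. Tef (0.556 ± 0.0131) and Arntl (0.470 ± 0.115) overlapped, and Nr1d2 was the lowest at 0.178 ± 0.0809 RPKM. With Tβ-MCA the order of the means was the same but some gaps closed. Dbp, at 3.26 ± 0.639 RPKM, then overlapped with Per2 at 3.70 ± 0.447, and Nr1d1, at 1.23 ± 0.168, with Clock at 1.27 ± 0.0936 and with Tef at 1.03 ± 0.296.

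To find which clock genes differed between Tβ-MCA and PBS, the counts were compared by the quasi-likelihood test of edgeR, and p was adjusted by Benjamini-Hochberg over all 16761 genes. With Tβ-MCA, 4 of the 10 clock genes rose and none fell at an adjusted p under 0.05, where 7.62% of all genes tested were called, 4.44% higher and 3.18% lower. The genes that rose were the repressors Nr1d1 and Bhlhe40 and the PAR bZIP factors Dbp and Tef. Their levels were 1.63 to 1.79 times those with PBS. The activators Arntl and Clock, the repressors Per1, Per2 and Cry1, and Nr1d2 did not pass. The median log2 fold change of the 10 genes was -0.016, beside 0.0041 for all genes tested.

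**Figure D1:**
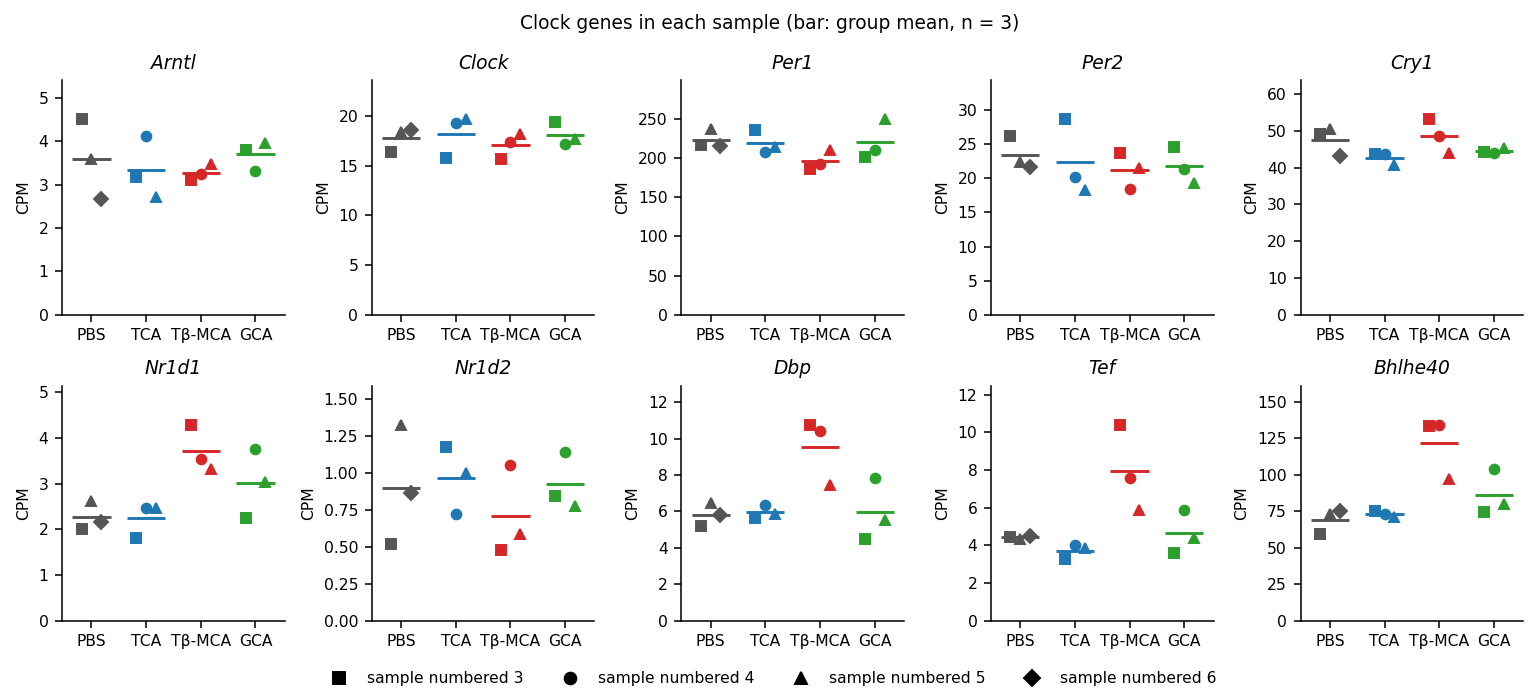
Level of each clock gene in the 12 samples, in CPM on a linear axis from 0, by group. Points are samples, with the shape giving the number in the title, and bars are group means (n = 3). Nr1d1, Dbp, Tef and Bhlhe40 lie higher in all 3 Tβ-MCA samples than in any PBS sample, and the 4 squares of Per2 lie above all its other points.

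Bhlhe40, which lies on chromosome 6 (108660629 to 108666925, plus strand), had the smallest p of the 10 and ranked 86th of all genes. Its levels were 59.3, 73.1 and 75.5 CPM in PBS 3, 5 and 6, and 134, 134 and 97.2 CPM in Tβ-MCA 3, 4 and 5. The groups did not overlap, which held for 14.1% of all genes tested in the higher direction, and Tβ-MCA 5 lay nearest to PBS. The log2 fold change was 0.81 ± 0.14 (SE, 95% CI 0.50 to 1.13, adjusted p = 0.0208). With TCA its levels were 74.9, 73.0 and 70.7 CPM, and with GCA 74.5, 104 and 80.0 CPM in samples 3, 4 and 5. GCA 4 was the only sample outside Tβ-MCA above 80.0 CPM. An antisense gene on the opposite strand, 0610040F04Rik, shares 118 exon bases with Bhlhe40 and had 7.46 to 10.4 CPM with PBS and 14.6 to 18.9 CPM with Tβ-MCA. The library kit keeps the strand, but the strand setting of the counting was not given, so reads of the shared bases cannot be assigned to one gene.

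Tef encodes thyrotroph embryonic factor and lies on chromosome 15 (81802421 to 81826861, plus strand), where both of its windows hold an E-box. Its levels were 4.42, 4.35 and 4.50 CPM in PBS 3, 5 and 6 and 10.4, 7.56 and 5.89 CPM in Tβ-MCA 3, 4 and 5. All 3 Tβ-MCA samples were above every one of the other 9, although Tβ-MCA 5 exceeded GCA 4 (5.87 CPM) by very little. The log2 fold change was 0.84 ± 0.20 (SE, 95% CI 0.42 to 1.27, adjusted p = 0.0272). With TCA the levels were 3.29, 4.01 and 3.84 CPM and with GCA 3.61, 5.87 and 4.41 CPM in samples 3, 4 and 5.

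Dbp, the D-box binding protein gene and one of the most rhythmic clock outputs in many tissues, lies on chromosome 7 (45705088 to 45710203, plus strand). It stood at 5.19, 6.47 and 5.82 CPM in PBS 3, 5 and 6 and at 10.7, 10.4 and 7.44 CPM in Tβ-MCA 3, 4 and 5. The groups did not overlap, and Tβ-MCA 5 was again the lowest of its group. The log2 fold change was 0.71 ± 0.19 (SE, 95% CI 0.32 to 1.10, adjusted p = 0.0340). In samples 3, 4 and 5 its level was 5.65, 6.36 and 5.85 CPM with TCA and 4.48, 7.82 and 5.55 CPM with GCA. GCA 4 thus exceeded Tβ-MCA 5. Dbp shares 539 exon bases with Sphk2 on the opposite strand, which was more abundant but did not follow it, with 36.4 to 44.6 CPM in PBS and 36.0 to 40.3 CPM in Tβ-MCA samples.

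Nr1d1 lies on chromosome 11 (98767932 to 98775333, minus strand) and rested on few reads, 58 to 143 per sample. It was measured at 2.01, 2.62 and 2.16 CPM in PBS 3, 5 and 6 and at 4.28, 3.54 and 3.32 CPM in Tβ-MCA 3, 4 and 5. Its log2 fold change was 0.71 ± 0.21 (SE, 95% CI 0.27 to 1.16) and the adjusted p of 0.0489 lay just under the threshold. TCA samples 3, 4 and 5 had 1.80, 2.47 and 2.46 CPM and GCA samples 3, 4 and 5 had 2.25, 3.75 and 3.03 CPM, so that GCA 4 exceeded 2 of the 3 Tβ-MCA samples. Thra, the thyroid hormone receptor gene on the opposite strand, shares 263 exon bases with Nr1d1 and was also higher in Tβ-MCA samples, at 41.6 to 49.2 CPM against 31.9 to 33.4 CPM with PBS. The share of Nr1d1 reads that came from Thra was not tested.

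The other receptor of the pair, Nr1d2, was near the limit of this depth, with 16 to 45 counts per sample. It stood at 0.516, 1.32 and 0.863 CPM in PBS 3, 5 and 6 and at 0.479, 1.05 and 0.589 CPM in Tβ-MCA 3, 4 and 5. The groups overlapped, and the 95% CI of its log2 fold change ran from -1.15 to 0.47. This interval lies below the 0.71 of Nr1d1 but overlaps its 95% CI of 0.27 to 1.16. With an SE of 0.38, a rise or a fall of 0.71 in Nr1d2 would not have been reliably detectable at this depth. The difference between Nr1d1 and Nr1d2 was not tested.

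The values of both activators overlapped between the groups. Arntl was at 4.50, 3.59 and 2.67 CPM in PBS 3, 5 and 6 and at 3.11, 3.24 and 3.48 CPM in Tβ-MCA 3, 4 and 5. The highest and the lowest Arntl values of all 12 samples were both PBS samples, and the log2 fold change was -0.13 (95% CI -0.55 to 0.30). Clock was at 16.4 to 18.6 CPM with PBS and 15.7 to 18.2 CPM with Tβ-MCA, and its log2 fold change was -0.06 (95% CI -0.28 to 0.16). Clock varied the least of the 10 genes, by 1.25 times between its lowest and highest sample.

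Of Per1, Per2 and Cry1, Per1 was the 1 gene whose groups did not overlap. Its levels were 217, 236 and 215 CPM in PBS 3, 5 and 6 and 185, 192 and 210 CPM in Tβ-MCA 3, 4 and 5, and its log2 fold change of -0.19 ± 0.083 (SE) did not pass (edgeR's quasi-likelihood test, Benjamini-Hochberg adjusted p = 0.176). In the lower direction, 12.8% of all genes tested did not overlap. Per2 had a log2 fold change of -0.14 (95% CI -0.47 to 0.19) and Cry1 one of 0.03 (95% CI -0.14 to 0.20), with overlapping groups for both. Per1 and the 4 genes that rose thus had log2 fold changes of opposite sign.

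**Figure D2:**
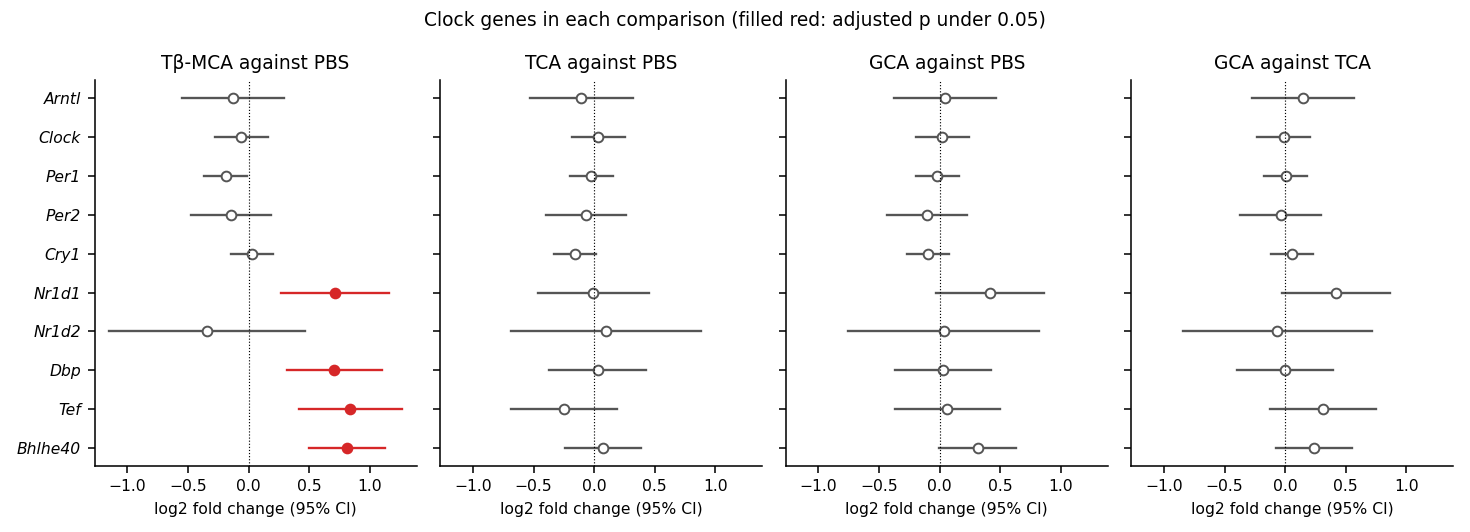
Log2 fold change of the 10 clock genes in the 4 comparisons, with 95% confidence intervals from edgeR. Filled red points passed an adjusted p of 0.05. Only Nr1d1, Dbp, Tef and Bhlhe40 against PBS with Tβ-MCA are filled, with values from 0.71 to 0.84, and Nr1d2 has the widest intervals.

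The 4 calls depended on which samples were fitted. None passed when only the Tβ-MCA and PBS samples were fitted, without the spread of the TCA and GCA samples, with adjusted p from 0.0576 to 0.0761 in edgeR's quasi-likelihood test. None of the 4 passed without PBS 3, without PBS 5, without Tβ-MCA 3, without Tβ-MCA 4, or without the 4 samples numbered 3, Bhlhe40 alone passed without PBS 6, and all 4 passed without Tβ-MCA 5. Their direction was the same in each of these fits. Between samples of the same number the size of the difference varied. Tβ-MCA 3 was 2.26 times PBS 3 for Bhlhe40, 2.35 times for Tef, 2.07 times for Dbp and 2.13 times for Nr1d1. Tβ-MCA 5 was 1.33, 1.35, 1.15 and 1.27 times PBS 5 for the same genes in that order.

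Across the samples, Bhlhe40, Tef and Dbp were highest where marker mRNA of monocytes and macrophages was lowest. All 10 monocyte and macrophage markers had negative log2 fold changes with Tβ-MCA (median -0.88, beside 0.0041 for all genes tested), 7 of them with groups that did not overlap and 1, Ly6c2, past an adjusted p of 0.05. Their summed level was 1165 to 1181 CPM with PBS and 1040 to 1203 CPM with TCA. It was 339, 402 and 906 CPM in Tβ-MCA 3, 4 and 5, and 1111, 816 and 1130 CPM in GCA 3, 4 and 5. The 2 samples with the highest Bhlhe40, Tef and Dbp were those with the lowest monocyte sum, and Tβ-MCA 5 and GCA 4 were intermediate in both. Nr1d1 did not follow this order, with 3.75 CPM in GCA 4 and 3.54 CPM in Tβ-MCA 4. Ccr2, a defining marker of inflammatory monocytes, was at 2.03, 2.70 and 29.2 CPM in Tβ-MCA 3, 4 and 5, at 24.9 CPM in GCA 4 and at 37.3 to 51.2 CPM in PBS samples. Neutrophil markers were lower too, 9 of 10 without overlap and 4 of them called (Ly6g, S100a8, Mmp9 and Camp), and their summed level was 26207 to 30683 CPM with Tβ-MCA and 33509 to 40456 CPM with PBS. In bulk samples, fewer cells of a type and less of its mRNA per cell cannot be told apart. The part of these markers in the clock gene values was not tested.

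**Figure D3:**
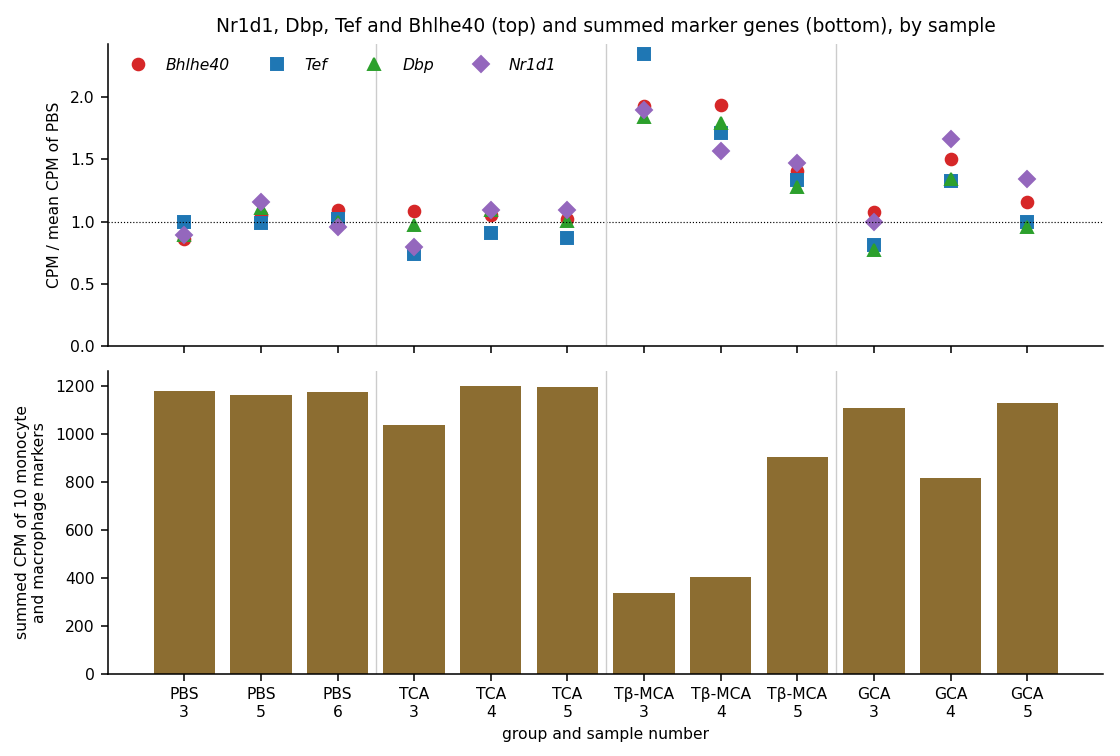
Top, CPM of Bhlhe40, Tef, Dbp and Nr1d1 in each sample divided by the mean of the 3 PBS samples, so that 1 is the PBS mean. Bottom, summed CPM of 10 monocyte and macrophage markers in the same samples. The marker sum is 339 and 402 CPM in Tβ-MCA 3 and 4, where the 4 genes lie at 1.56 to 2.35 times the PBS mean, and 816 CPM in GCA 4, where they lie at 1.33 to 1.66 times.

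Markers of the other cell types gave smaller sums. B cell markers summed to 38.8 to 50.9 CPM with PBS and 36.8 to 40.2 CPM with Tβ-MCA, and 1 of the 5 was called lower. Eosinophil markers summed to 138 to 241 CPM with PBS and 54.1 to 124 CPM with Tβ-MCA, also with 1 of 5 called lower. Basophil and mast cell markers summed to 18.1 to 35.1 CPM with PBS and 17.4 to 32.1 CPM with Tβ-MCA, with none of 4 called, and their high values were those of the samples numbered 3. The T and NK cell markers summed to at most 2.65 CPM in any sample.

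Other genes of the clock rose with Tβ-MCA as well. Of 22 further clock genes, 21 were in the table and 17 were tested, of which 3 rose and none fell, where 4.44% of all genes tested were called higher. Per3, a Per paralogue, was at 6.74, 4.83 and 6.50 CPM in PBS 3, 5 and 6 and at 11.3, 9.80 and 7.49 CPM in Tβ-MCA 3, 4 and 5. Its log2 fold change was 0.66 ± 0.17 (SE) and its adjusted p 0.0343 by edgeR's quasi-likelihood test. Csnk1d, a kinase that phosphorylates PER proteins, rose by 0.38 ± 0.096 (log2, SE, adjusted p = 0.0314). Nampt, a clock-controlled enzyme of NAD synthesis, rose by 0.35 ± 0.086 (log2, SE, adjusted p = 0.0290). These 3 calls were lost too, with 0 genes called in the whole table, without PBS 3, without PBS 5, without Tβ-MCA 3, without Tβ-MCA 4, and when only the Tβ-MCA and PBS samples were fitted. Bhlhe41, the paralogue of Bhlhe40, had the largest value, 1.07 ± 0.31 (log2, SE), and did not pass (adjusted p = 0.0551). Bhlhe41 stood at 3.16, 4.12 and 3.75 CPM in PBS 3, 5 and 6 and at 8.14, 9.05 and 5.996 CPM in Tβ-MCA 3, 4 and 5, without overlap.

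Rora, which activates Arntl through ROR elements, also did not overlap between the groups (log2 fold change 0.47, adjusted p = 0.0908), nor did Btrc (0.31, adjusted p = 0.0566), which encodes a ubiquitin ligase subunit that acts on PER proteins. Timeless had lower, separate values (log2 fold change -0.12, adjusted p = 0.361). The median log2 fold change of the 17 was 0.10. Arntl2, Npas2 and Fbxl21 had at most 9 counts in any sample and were not tested, so a change in these would not have been detectable.

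**Figure D4:**
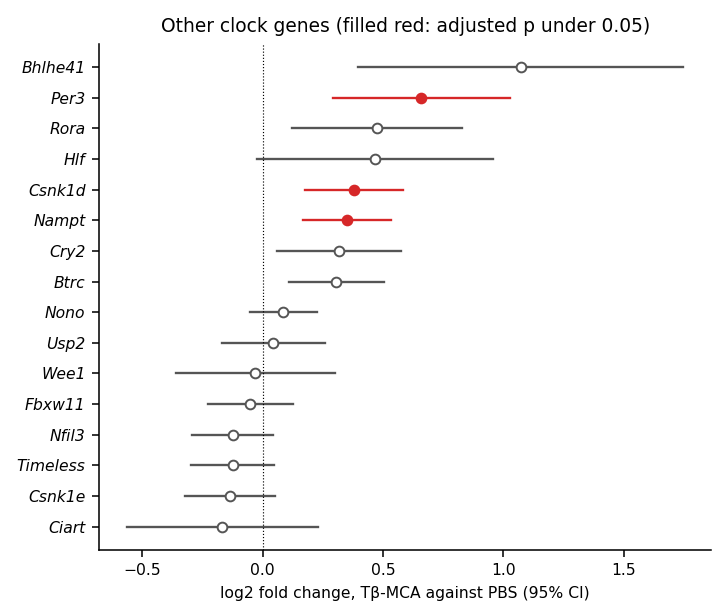
Log2 fold change of further clock genes in Tβ-MCA against PBS, with 95% confidence intervals from edgeR, sorted by value. Filled red points passed an adjusted p of 0.05, which were Per3, Csnk1d and Nampt at 0.66, 0.38 and 0.35, while Bhlhe41 at 1.07 did not.

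Genes of neutrophil ageing were examined in the same comparison by edgeR's quasi-likelihood test. Cxcr2, a chemokine receptor that is also among the neutrophil markers above, had separate lower values, 281 to 379 CPM with Tβ-MCA and 403 to 448 CPM with PBS, and did not pass (log2 fold change -0.31, adjusted p = 0.0618). Its ligand gene Cxcl2 was likewise separate and not called (-1.38, adjusted p = 0.0932), as were the integrin genes Itgax (-0.49, adjusted p = 0.110) and Itga4 (-0.34, adjusted p = 0.0505). Cxcr4 was at 56.5 to 63.4 CPM with Tβ-MCA and 58.0 to 61.9 CPM with PBS, and its log2 fold change was 0.00 (95% CI -0.14 to 0.15).

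The taurine and glycine conjugates of cholic acid were compared with PBS and with each other at 200 μM, which asks whether the conjugate bears on the clock genes. None of the 10 clock genes passed with TCA, with GCA or between them, in comparisons where edgeR's quasi-likelihood test called 0 of 16761 genes (0% each). At an unadjusted p under 0.05 there were 546 genes with TCA (3.26%), 591 with GCA (3.53%) and 412 between GCA and TCA (2.46%), and none of the 10 was among them. DESeq2 called 1, 0 and 0 genes, and limma called 0 in all 3. The comparisons with PBS share its 3 samples with that of Tβ-MCA.

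Between GCA and TCA, which differ in the amino acid joined to the same bile acid, the largest difference was that of Nr1d1, at a log2 fold change of 0.42 with a 95% CI from -0.03 to 0.87. Tef followed at 0.31 (95% CI -0.12 to 0.75) and Bhlhe40 at 0.24 (95% CI -0.07 to 0.55). Dbp was at 0.00 (95% CI -0.40 to 0.40), Per1 at 0.00 (95% CI -0.17 to 0.18) and Clock at -0.01 (95% CI -0.23 to 0.22). These intervals do not show that the compounds act alike, since those of Nr1d1, Tef and Bhlhe40 reach 0.55 or more. Cry1 was the 1 gene whose values were separate, at 43.9 to 45.4 CPM with GCA and 40.7 to 43.8 CPM with TCA, where 3.81% of all genes were separate in that direction, and its log2 fold change was 0.06.

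Against PBS, GCA gave log2 fold changes of 0.41 for Nr1d1 (95% CI -0.03 to 0.86) and 0.31 for Bhlhe40 (95% CI -0.00087 to 0.63), both highest in GCA 4. TCA gave -0.25 for Tef (95% CI -0.69 to 0.19), with values separate from and below those of PBS, as for 4.76% of all genes, and -0.16 for Cry1 (95% CI -0.33 to 0.02). Side by side, the log2 fold changes of Tef were 0.84 with Tβ-MCA, -0.25 with TCA and 0.06 with GCA, and those of Dbp were 0.71, 0.03 and 0.03, at doses that may differ. The difference between Tβ-MCA and the other bile acids was not tested.

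Across groups, Per2 was highest in the samples numbered 3. It stood at 26.2 CPM in PBS 3, 28.7 in TCA 3, 23.7 in Tβ-MCA 3 and 24.6 in GCA 3. In the 8 other samples it lay from 18.4 to 22.4 CPM, so that the samples numbered 3 were separate from all the rest. None of the other clock genes was separated in this way, and the share of all genes that were was not counted. In a model with group and sample number, Per2 differed by number (adjusted p = 0.0331 by edgeR's quasi-likelihood test), with log2 fold changes of -0.34, -0.34 and -0.33 for numbers 4, 5 and 6 against 3, of which number 6 rests on 1 PBS sample. The number was called for 1 of the 10 clock genes and for 6.65% of all genes tested (1115 genes), so the share among clock genes stood near the background. Scaled by total library size, Per2 had an adjusted p of 0.0502 in that model and did not pass. What a shared number stands for was not given in the sources used here, and a shared preparation, mouse or hour of the day cannot be told apart.

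**Figure D5:**
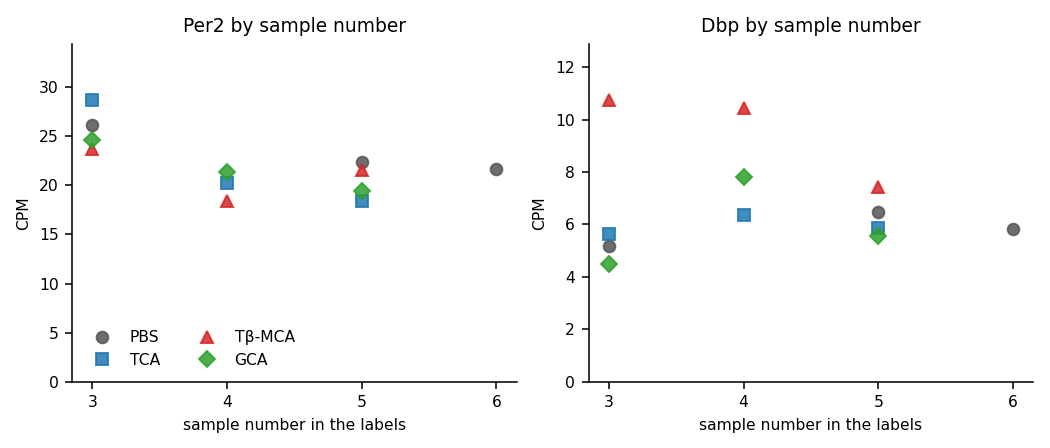
CPM of Per2 (left) and Dbp (right) against the number in the sample title, with 1 point per sample and a shape per group, on linear axes from 0. Per2 lies at 23.7 to 28.7 CPM in the 4 samples numbered 3 and at 18.4 to 22.4 CPM in the other 8. Dbp is not separated by the number. It is highest in Tβ-MCA 3 and 4, while GCA 4 (7.82 CPM) lies above Tβ-MCA 5 (7.44 CPM).

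In a running clock, members of the loop vary together or in opposition, and 10 pairs were examined across samples. Over all 12 samples 2 pairs passed by Pearson's r (permutation test, Benjamini-Hochberg). They were Dbp with Tef (r = 0.91, adjusted p = 0.0007) and Nr1d1 with Dbp (r = 0.83, adjusted p = 0.0034). By Spearman's rho the adjusted permutation p was 0.061 and 0.0186. The permutations moved samples across groups, so these p-values include the difference between groups. With the group means removed, r was 0.86 and 0.83, which was not tested. The differences within Tβ-MCA and within GCA remain in these values. Since the 4 genes that rose were higher with Tβ-MCA, the relation is also given over the 9 samples of PBS, TCA and GCA. This restriction was chosen after seeing the data. None of the 10 pairs passed there, with adjusted p from 0.225 to 0.935 for Pearson's r (permutation test, Benjamini-Hochberg). Dbp and Tef had Pearson's r = 0.68 (permutation p = 0.0498) and Spearman's rho = 0.33 (permutation p = 0.386), and r was -0.02 without the 2 samples farthest from the median of Dbp, so the relation rested on those samples. Nr1d1 and Dbp had r = 0.65 (permutation p = 0.0600) and rho = 0.58 (permutation p = 0.108), with r = 0.37 without the farthest 2. Arntl and Cry1 had r = 0.63 (permutation p = 0.0675) and rho = 0.62 (permutation p = 0.0848), and r = 0.35 without the farthest 2. Arntl and its repressor Nr1d1 had r = 0.04 (permutation p = 0.911) and rho = 0.13 (permutation p = 0.743), with r = -0.15 without the farthest 2.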

How the data were processed

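RNA-seq of 12 samples was analysed, 3 each with PBS, TCA, GCA or Tβ-MCA for 24 h. Per the labels, RNA was extracted with TRIzol and sequenced from a stranded mRNA kit. The submitters' processing notes name Trimmomatic 0.36, STAR 2.5.3a, featureCounts of Subread 1.5.1 and the build GRCm38 (mm10). The authors deposited raw counts of reads per gene, and RPKM values divided by exon length and by counted reads, which recalculation matched to a relative difference of 1.3e-06. The GCA columns carry the abbreviation GA, which the design text uses for the same bile acid. Columns of other samples numbered 0, and 2 gene names had more than 1 entry.

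CPM were calculated with TMM scaling. Counts were tested in R 4.3.3 with edgeR 4.0.16 (robust quasi-likelihood fit over all 12 samples, filterByExpr by group, Benjamini-Hochberg adjusted p under 0.05). Alternatives used DESeq2 1.42.0, limma 3.58.1 on log2(RPKM + 1) for genes averaging 0.5 RPKM or more, total library size, DESeq2 size factors, no filter, a minimum of 10 counts per sample, a fit restricted to the groups compared, the sample number as a block, and leaving out samples. Log2 CPM for correlations and principal components (1000 genes) had a prior count of 2. Permutation tests were two-sided with 100000 resamples. Python 3.11.15 was used with scipy 1.17.1. The edgeR script was tested on simulated data. Sequences are RefSeq promoter windows of GRCm38.p6, and gene positions are those of the deposited table. Confidence intervals cover the spread between samples.

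The clock genes, the other gene lists and the tests were chosen with earlier results of these data known, and the genes named are all 10 clock genes, listed clock, ageing and marker genes that were called or had separate groups, defining markers, overlapping genes, and the gene most correlated with each clock gene. Results for some listed genes are not reported here.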

Additional observations from a re-analysis of the deposited data

How the results depend on the processing

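With Tβ-MCA against PBS, the number of genes called was 1278 in the fit reported, 2035 with DESeq2, 2406 with no filter and 0 when only the 2 groups were fitted, where fewer samples estimate the spread. It was 1 without the samples numbered 3, 3053 without both Tβ-MCA 5 and GCA 4 (both chosen after seeing the data), and 0 to 3076 when 1 sample was left out. The number of clock genes called was 4, but 1 with limma, which kept 8 of the 10, and 0 when only the 2 groups were fitted. It was 0 without the samples numbered 3 and 0 to 4 when 1 sample was left out. Of 16 alternatives, the call was lost in 6 for Bhlhe40, in 9 each for Dbp and Tef, and in 10 for Nr1d1. No clock gene changed from a called direction to the other. Over the 16 alternatives, log2 fold changes lay at 0.64 to 0.95 for Bhlhe40 and 0.53 to 0.86 for Dbp. They lay at 0.38 to 1.02 for Tef and 0.37 to 0.83 for Nr1d1. Adjusted p reached 0.187, 0.197, 0.165 and 0.230 in that order. The lowest values of Dbp, Tef and Nr1d1 were those of limma on log2(RPKM + 1). There the added 1 shrinks the differences of genes with low RPKM, so these values are not on the scale of the others. The causes were not tested.

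With the sample number as a replicate block, 1 clock gene was called with Tβ-MCA (Bhlhe40), and 3 genes, none of the 10, were called with TCA against PBS. Same-numbered samples deviated from their group means with a mean r of 0.19 (0.060 to 0.33, 15 pairs) and others with -0.072 (39 pairs). Among same-numbered samples, r was 0.20 to 0.33 for the 6 pairs numbered 3 and 0.060 to 0.24 for the 9 numbered 4 or 5. Since PBS shares 2 numbers with each bile acid and not every pair was over 0.1, the numbers were not taken to pair the samples. Whether a number marks a shared origin was not tested.

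For TCA against PBS, DESeq2 called 1 gene and no filter gave 37 calls. No filter gave 36 calls for GCA against PBS and 42 for GCA against TCA, which had 4 without the samples numbered 3. None of these alternatives called any of the 10 clock genes in the 3 comparisons. The sample number was called for 1115 genes, and for 2416 with no filter. Of the 10 pairs of clock genes, 2 passed over 12 samples and 0 over 9. Depth limited Nr1d2 most, with 16 to 45 counts per sample.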

Other observations

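The 12 samples include the split of Tβ-MCA 3 and 4 from the rest, which Per2 and Arntl did not follow. The correlations are therefore given as a description. Over the 12 samples, the tested gene whose log2 CPM was most like that of each clock gene was found by Pearson's r. Each r is the largest among all genes tested, so it is high by selection. How high it would be for unrelated genes was not tested. For Bhlhe40 it was 1810043G02Rik (r = 0.99), for Tef Appl2 (r = 0.98) with the PER kinase gene Csnk1d in place 3 (r = 0.97), for Dbp Dtx4 (r = 0.98) and for Nr1d1 Grn (r = 0.95), the gene of progranulin. For Per1 it was Tmem189 (r = 0.94), for Cry1 Rab3ip (r = 0.94), for Per2 Gm11407 (r = 0.93), for Clock Hnrnpa3 (r = 0.90), for Nr1d2 Sh2d4b (r = 0.90) and for Arntl Mast2 (r = 0.86). None of the 10 clock genes was among the 3 nearest genes of another of the 10.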
